A study of Homo sapiens with 15 samples.

Results

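The loci described here are the starts of 6 genes that encode WDR5 and proteins it works with in histone H3 lysine methylation: WDR5, RBBP5, ASH2L, DPY30, KMT2A and MEN1. The members are the peaks of the deposited lists that lie within 3 kb of 1 given hg19 start position for each gene, whatever their width or rank. This rule found 15 peaks out of 20388 in all, of which 9 came from the WDR5 list, 5 from the list of wild-type MYC (WT-MYC) and 1 from the list of a MYC mutant deficient in binding WDR5 (WBM-MYC). Each gene had at least 1 peak.

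The study used chromatin immunoprecipitation followed by sequencing (ChIP-seq) in HEK293 cells, a line derived from human embryonic kidney. It asked where MYC binds with and without its contact to WDR5, and how these sites relate to those of WDR5 itself. Cells transduced with a retrovirus expressed either form of MYC fused to a FLAG tag, or carried the empty vector, and M2 anti-FLAG agarose was used for all of them. Untransduced HEK293 cells were precipitated with an antibody against endogenous WDR5 or with purified rabbit IgG. The 15 libraries form 5 groups of 3 biological replicates. Whether the transduced cells were pools or clones is not given in the sources used here, and all cells keep their endogenous MYC, which the FLAG antibody does not see. Each of the WDR5, WT-MYC and WBM-MYC groups is represented by 1 list, which has no replicate error, and no test between conditions was made. Vector and IgG peaks and read depth were not analysed here.

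WDR5 is a propeller-shaped scaffold that joins RBBP5, ASH2L and DPY30 in a core module. That module binds the catalytic methyltransferases of the KMT2 and SETD1 families and stimulates methylation of histone H3 lysine 4, a mark of active promoters. KMT2A (also called MLL1) is one of these enzymes, and menin, the product of MEN1, tethers KMT2A to chromatin. MYC also contacts WDR5, and the mutant used here is deficient in that contact. The data below therefore show where MYC and WDR5 were called at the genes for the complex itself. The name WDR5 stands for the gene where a gene start is meant and for the precipitated protein where a peak is meant.

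Promoter sequences of the genes are shown first because most of the peaks lay across their starts. They come from RefSeq promoter windows on GRCh38.p14, each of 300 bases with 250 before the gene start and 50 after. The peaks are on hg19, so no motif position can be set against a peak. Of the 6 genes, 4 matched this table: WDR5 with 4 windows for alternative starts, MEN1 with 2, and RBBP5 and KMT2A with 1 each. Both strands were searched for CACGTG, the canonical E-box that MYC binds with its partner MAX, for the variant E-box CACGCG, and for GGGCGG, the GC box of SP-family factors. The first pair of motifs cannot overlap each other, and either can share an end base with GGGCGG. The 250 bases before the start are printed 5′ to 3′ on the gene's strand, from the most upstream window, for a gene called in all lists (KMT2A), a gene called for WDR5 and WT-MYC (RBBP5) and a gene called for WDR5 alone (MEN1). Capitals mark any of these motifs.
KMT2A, chr11:118436242-118436491, plus strand: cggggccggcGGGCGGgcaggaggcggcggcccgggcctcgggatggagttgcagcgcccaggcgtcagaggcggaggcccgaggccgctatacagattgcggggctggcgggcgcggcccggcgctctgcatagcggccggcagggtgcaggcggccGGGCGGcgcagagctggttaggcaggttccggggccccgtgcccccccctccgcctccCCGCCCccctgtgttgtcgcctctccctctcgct
RBBP5, chr1:205121979-205122228, minus strand: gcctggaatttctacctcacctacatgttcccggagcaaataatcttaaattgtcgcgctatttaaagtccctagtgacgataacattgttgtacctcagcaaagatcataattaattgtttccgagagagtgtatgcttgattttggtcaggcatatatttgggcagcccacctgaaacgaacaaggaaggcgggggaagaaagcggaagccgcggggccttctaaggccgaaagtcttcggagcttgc
MEN1, chr11:64810687-64810936, minus strand: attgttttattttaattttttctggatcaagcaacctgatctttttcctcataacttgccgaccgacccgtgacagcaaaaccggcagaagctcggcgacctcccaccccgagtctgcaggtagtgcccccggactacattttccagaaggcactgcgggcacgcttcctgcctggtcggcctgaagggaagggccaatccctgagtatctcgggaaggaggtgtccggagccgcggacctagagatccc

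For the WDR5 gene, which had a WT-MYC peak without a WDR5 peak, the later windows lie past the earliest start, so only 30 bases around each E-box match are shown, with the E-box in capitals.
WDR5, window 3, chr9:134136058-134136087, plus strand: cctcccctcgcgCACGCGcactgcgccccc
WDR5, window 4, chr9:134136273-134136302, plus strand: acccggccgccgCACGTGttccccgccggg

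Among the members, the WDR5 gene was the single one of the 4 matched genes with a CACGTG or a CACGCG in its windows. It also had the most windows, 4 of 8, and each of these motifs was in 1 of the 8. The canonical CACGTG was in 7.26% of all 35116 promoter windows of the table and CACGCG in 11.4%. The KMT2A and RBBP5 windows held neither. Both genes had a WT-MYC peak of 496 bp, wider than the 300-base window, so part of each peak was not searched. Whether these peaks hold either motif was not tested. GGGCGG occurred 3 times in the KMT2A window, in 3 of the 4 WDR5 windows and in 1 of the 2 MEN1 windows, and not in the RBBP5 window, against 45.0% of all windows. GC content was 76.3% in the KMT2A window and 49.3% in the RBBP5 window, where the median over all windows was 58.7% (interquartile range 47.0 to 68.0%). Other genes of WDR5-containing complexes, among them KMT2B, KMT2C, KMT2D, SETD1A and KDM6A, were set out as a list of 19, of which 14 matched the promoter table. CACGTG was found for 5 of these 14 genes, KMT2D, KDM6A, KANSL1, PHF20 and MCRS1, and CACGCG for 3, KMT2B, KANSL1 and KANSL3. Counted by window, as the shares over all windows are, these were 5 and 3 of 18 windows, and GGGCGG was in 13 of the 18, for 12 of the genes. GC content of these 18 windows ran from 59.7 to 88.7%, all above the median over all windows. The motif counts were not adjusted for it. Peaks at the 19 listed genes were not analysed here, because their hg19 starts are not in the tables used.

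WDR5 protein was called at the starts of RBBP5, ASH2L, DPY30, KMT2A and MEN1, and WT-MYC at those of WDR5, RBBP5, ASH2L, DPY30 and KMT2A. WBM-MYC was called at KMT2A. The 4 genes RBBP5, ASH2L, DPY30 and KMT2A thus had both a WDR5 and a WT-MYC peak, MEN1 had WDR5 without MYC, and the WDR5 gene had WT-MYC without WDR5. Of the 5 genes with a WDR5 peak, 4 also had WT-MYC, where 17.2% of all WDR5 peaks had a WT-MYC peak within 3 kb (2949 of 17171, exact Clopper-Pearson 95% interval 16.6 to 17.7%). WDR5 peaks away from gene starts are part of that 17.2%, and no hg19 set of gene starts was used here, so the difference cannot be read as particular to these genes. Of the 5 genes with a WT-MYC peak, 4 had WDR5, a share near the 87.2% of all WT-MYC peaks with a WDR5 peak within 3 kb (2204 of 2527, 85.9 to 88.5%). One of these 5 genes had WBM-MYC, again near the background of 22.0% of WT-MYC peaks (556 of 2527, 20.4 to 23.7%). Among WDR5 peaks, 4.24% had a WBM-MYC peak within 3 kb.

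**Figure D1:**
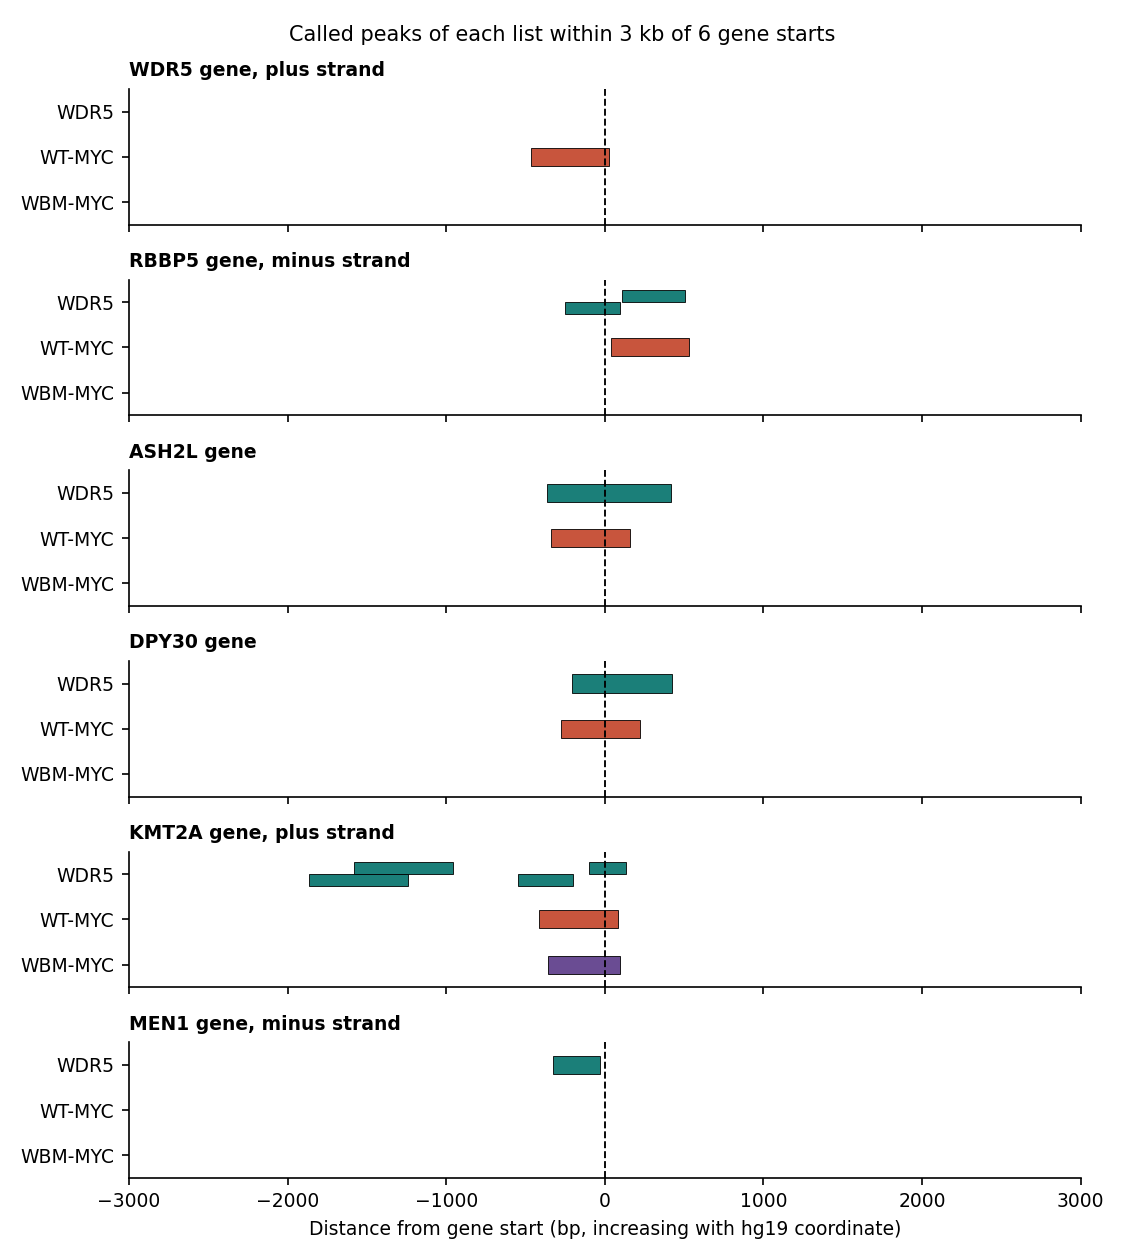
Peaks of the WDR5, WT-MYC and WBM-MYC lists (rows) around 6 gene starts (panels), with the distance from the gene start in bp on the horizontal axis, increasing with the hg19 coordinate, and the dashed line at the start. Bars are called peaks to scale; staggered bars are separate peaks of the same list. Peaks stand at or beside every start, the WBM-MYC row is filled at KMT2A, and the WDR5 row is empty at the WDR5 gene.

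Any distance limit between 1 and 10 kb called the same genes. The member farthest from its start was a WDR5 peak 1241 bp from that of KMT2A, and the nearest peak left outside was a WT-MYC peak 23.7 kb from the DPY30 start. Joining peaks of all lists across gaps of up to 3 kb gave 13292 sites in the genome. Sites with WDR5 alone, as at MEN1, made up 80.9% of them, and sites with WDR5 and WT-MYC, as at RBBP5, ASH2L and DPY30, 12.5%. Sites with peaks of all 3 lists, as at KMT2A, were 3.03%, and sites with WT-MYC alone, as at the WDR5 gene, 1.65%. The lists come from separate cells, so a shared site does not show these proteins bound together.

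Among the core subunits, RBBP5, a propeller protein that contacts nucleosome and enzyme, had a pair of WDR5 peaks and a WT-MYC peak at its start (chromosome 1, position 205091143). The first WDR5 peak, at 205091252 to 205091649, was 398 bp wide and stood at line 1507 of the list, within the leading 8.78%. The second, at 205090895 to 205091239, was 345 bp wide, spanned the start and stood at line 3174. A gap of 12 bp separated them. The WT-MYC peak covered 205091181 to 205091676 and began 38 bp from the start, on the upstream side since RBBP5 is on the minus strand. It contained the first WDR5 peak whole, with centres 22.0 bp apart, and shared 59 bp with the second. Its line was 2336 of 2527, 92.4% of the way down the WT-MYC list, so RBBP5 stood early in the WDR5 list and late in that of WT-MYC. No WBM-MYC peak was nearer than 1260 kb.

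ASH2L, the subunit that pairs with DPY30 and engages the enzymes' catalytic domain, had 1 peak each of WDR5 and WT-MYC (chromosome 8, start at 37963011). Its WDR5 peak, at 37962649 to 37963427 and line 2842, was 779 bp wide, and 97.1% of the WDR5 list was narrower. The WT-MYC peak, at 37962672 to 37963167 and line 674, lay wholly inside it and covered 63.7% of its width. Both spanned the gene start, with the centre of the WDR5 peak 27.0 bp and that of the WT-MYC peak 91.5 bp from it. Both also stood fairly early in their lists, at 16.6 and 26.7%. The nearest WBM-MYC peak was 10910 kb away, the largest such distance among the 6 genes.

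DPY30, a small dimeric subunit that binds ASH2L, had the earliest WDR5 peak of the loci (chromosome 2, start at 32264881). It covered 32264676 to 32265303, was 628 bp wide and stood at line 102, within the first 0.594% of the list. The WT-MYC peak at 32264608 to 32265103 spanned the start as well, shared 428 bp with it and had its centre 134.0 bp from that of WDR5. It stood at line 2049, or 81.1% of the list. As at RBBP5, an early WDR5 peak was thus accompanied by a late WT-MYC peak. Among WT-MYC peaks of the same decile (a list cut by line number into 10 equal blocks), 11.5% had a WBM-MYC peak within 3 kb (29 of 253, 7.81 to 16.0%), and DPY30 had none nearer than 3171 kb.

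The WDR5 gene itself carried a WT-MYC peak and no peak of its own protein (chromosome 9, start at 137001210). The WT-MYC peak covered 137000743 to 137001238, at line 577 (22.8% of the list), with 467 of its 496 bp before the start of this plus-strand gene. The nearest WDR5 peak was 787 kb from the start, at 137788201 to 137788824 and line 16073. Of all 2527 WT-MYC peaks, 17 (0.673%) were that far or farther from a WDR5 peak. The lack of WDR5 extended well beyond the gene. Within 1 Mb either side there was 1 WDR5 peak, where the mean over chromosome 9 gives 8.11 in 2 Mb, but 8 WT-MYC peaks (1.69 at the mean) and 7 WBM-MYC peaks (0.796 at the mean). None of the 8 WT-MYC peaks, which include that at the gene start, had a WDR5 peak within 3 kb, and 4 had a WBM-MYC peak. Over all WT-MYC peaks these shares were 87.2 and 22.0%. The nearest WBM-MYC peak to the start, at 137029848 to 137030303 and line 492, was 28.6 kb away and had no WT-MYC peak within 3 kb. The WDR5 gene thus stood in a stretch of chromosome 9 where the WDR5 list was sparse as a whole, and its missing peak cannot be told apart from that sparsity.

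Of the enzyme and its tether, KMT2A was the gene with peaks of all 3 lists (chromosome 11, start at 118307205). The WBM-MYC peak covered 118306844 to 118307299 at line 40 of 690 (5.80% of the list), and the WT-MYC peak 118306793 to 118307288 at line 360 (14.2%). Both spanned the start, shared 445 bp and had centres 31.0 bp apart. That is close to the median of 34.0 bp over the 541 overlapping pairs of WT-MYC and WBM-MYC peaks. In the decile of the WT-MYC list that holds the KMT2A peak, 43.5% of peaks had WBM-MYC within 3 kb (110 of 253, 37.3 to 49.8%), and among the leading 69 WBM-MYC peaks, its first decile, 92.8% had WT-MYC (64 of 69, 83.9 to 97.6%). WDR5 was within 3 kb of 55.1% of those leading WBM-MYC peaks (38 of 69, 42.6 to 67.1%), the lowest share of any decile of that list. Over the whole WBM-MYC list 74.2% of peaks had WT-MYC and 79.4% had WDR5 within 3 kb. Elsewhere on this part of the chromosome WBM-MYC was sparse: the next WBM-MYC peak was 40958 kb away on the lower side, and none was listed on the higher side.

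WDR5 formed 4 peaks at KMT2A, from 118305341 to 118307336, a span of 1996 bp. The one across the start was 229 bp wide and stood at line 8213 (47.8%). The next was 348 bp wide, 200 bp upstream of the start, at line 13119. The other two were 624 bp wide, the commonest width of the list (20.3% of peaks), had their nearer edges 958 and 1241 bp upstream, overlapped each other by 341 bp, and stood at lines 13724 and 15330. WT-MYC overlapped the first by 181 bp and the second by 213 bp, and neither of the 624-bp peaks. Its centre was 181.5 bp from that of the first WDR5 peak, within the interquartile range of 33.0 to 191.0 bp over 2443 overlapping WT-MYC and WDR5 pairs (median 86.5 bp). From the centre of the second it was 209.0 bp, outside that range. Having 4 or more WDR5 peaks within 3 kb was uncommon, at 46 of 2527 WT-MYC peaks (1.82%), and a further 134 (5.30%) had 3. The 4 at KMT2A count the overlapping 624-bp pair as separate peaks. KMT2A thus had the reverse order to RBBP5 and DPY30, with MYC peaks early and all WDR5 peaks from 47.8% of their list onwards.

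MEN1 had a single WDR5 peak and no MYC (chromosome 11, start at 64578188). This peak covered 64577860 to 64578156, was 297 bp wide, and ended 32 bp short of the start, on the side of the gene body since MEN1 is on the minus strand. It stood at line 9900 (57.7%), later than the earliest WDR5 peak of each of the other 4 genes. In that decile of the WDR5 list 12.1% of peaks had WT-MYC within 3 kb (208 of 1717, 10.6 to 13.8%). Absence of WT-MYC was the commoner state there, as in every decile of that list (39.0% with WT-MYC at most). The nearest WT-MYC peak was 203 kb and the nearest WBM-MYC peak 505 kb from the start. The region was dense in WDR5, with 80 peaks within 1 Mb, that of MEN1 included, against 13.4 at the chromosome mean. Of these 80, 8 had WT-MYC within 3 kb, where 17.2% of all WDR5 peaks did.

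**Figure D2:**
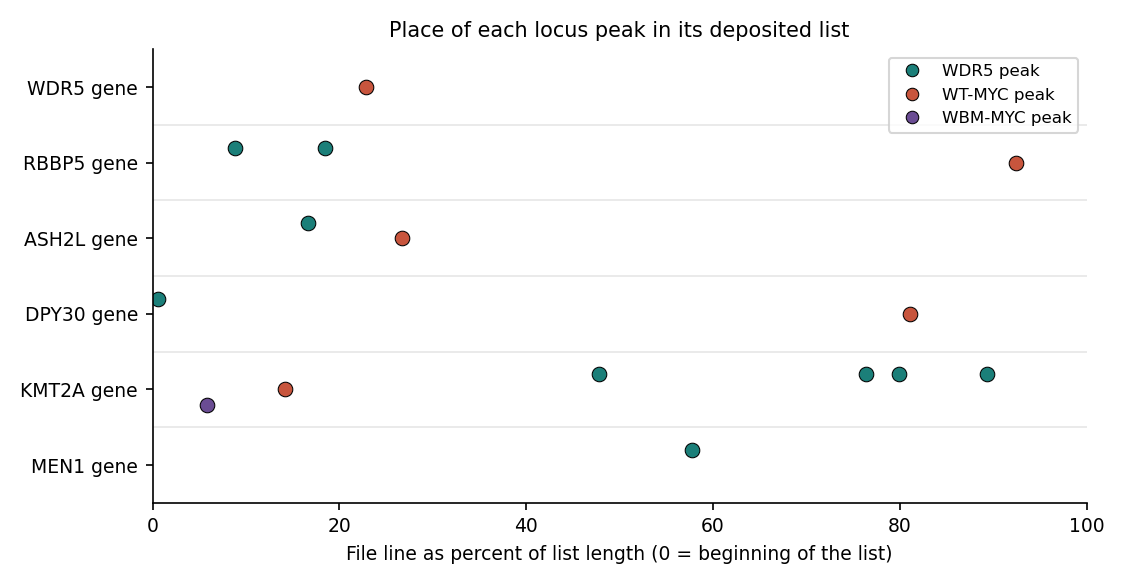
Line of each locus peak as a percentage of the length of its list (horizontal axis, 0 at the beginning of the list), by gene (vertical axis) and list (colour). The WDR5 peaks of DPY30 and RBBP5 stand between 0.594 and 18.5% and their WT-MYC peaks at 81.1 and 92.4%, whereas at KMT2A the WBM-MYC and WT-MYC peaks stand at 5.80 and 14.2% and the WDR5 peaks between 47.8 and 89.3%.

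File order was not the same in the different lists for these genes. The order of the lists is not explained in the labels and they have no score column, so an early line is a place in the file and not a measured height. By WT-MYC line the genes ran KMT2A (360), WDR5 (577), ASH2L (674), DPY30 (2049) and RBBP5 (2336). By their earliest WDR5 line they ran DPY30 (102), RBBP5 (1507), ASH2L (2842), KMT2A (8213) and MEN1 (9900). ASH2L was in the middle of both orders. Without replicates, no neighbours in either order can be said to differ. Lines of overlapping WDR5 and WT-MYC peaks were not compared over the whole lists, so how common such opposite places are is not known.

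**Figure D3:**
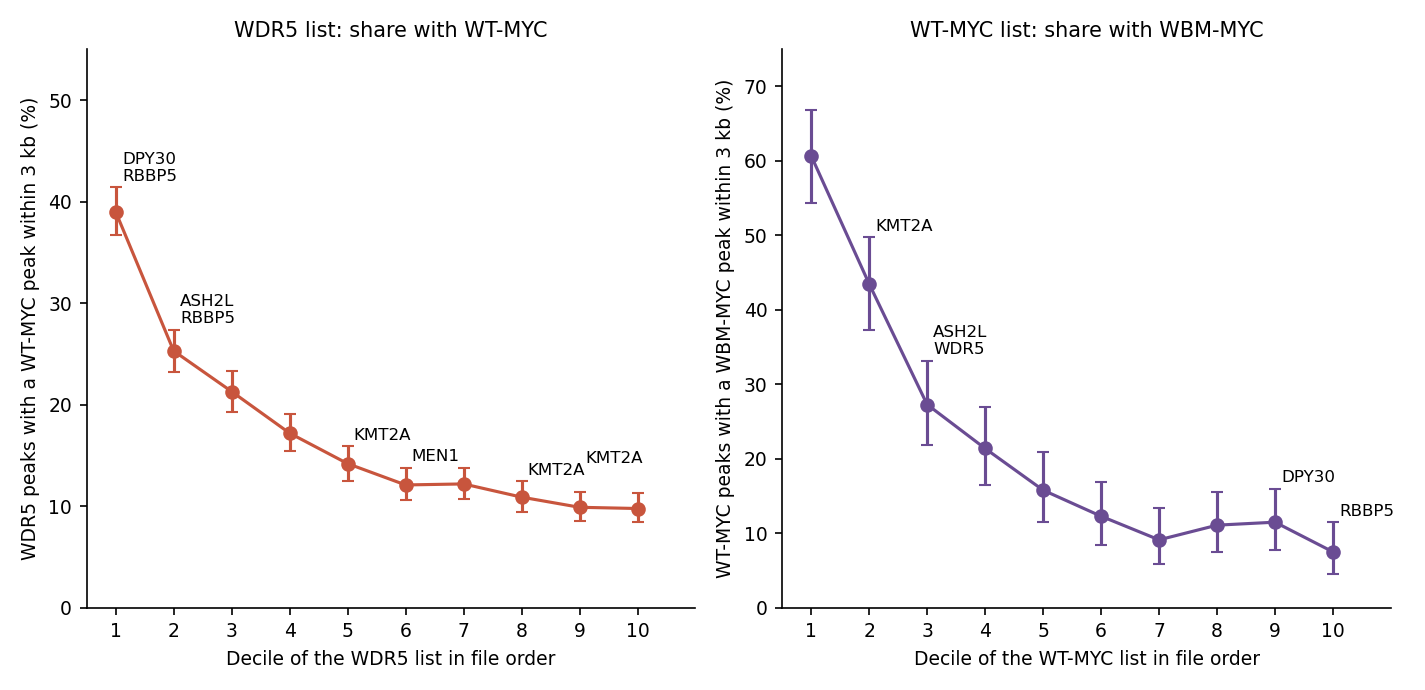
Percentage of WDR5 peaks that have WT-MYC within 3 kb (left) and of WT-MYC peaks that have WBM-MYC within 3 kb (right), by decile of file order (10 equal blocks of lines). Points are shares, bars are exact 95% intervals over peaks, and gene names mark the deciles that hold their peaks. The share falls from 39.0 to 9.78% on the left and from 60.7 to 7.51% on the right, with KMT2A late on the left and early on the right.

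Read against these shares by file position, the loci divide. The first decile of the WDR5 list, which holds the peak of DPY30 and the first of RBBP5, had WT-MYC at 39.0% (36.7 to 41.4%), and the second decile, with ASH2L, at 25.3% (23.2 to 27.4%). The deciles that hold the 4 KMT2A peaks ranged from 9.90 to 14.2%. For WBM-MYC, the WT-MYC peaks of ASH2L and WDR5 fell in a decile of which 27.3% had WBM-MYC (21.9 to 33.2%), and that of RBBP5 in one with 7.51% (4.58 to 11.5%). Lack of WBM-MYC was therefore the commoner state at the file position of each WT-MYC peak, that of KMT2A included.

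Widths gave little further distinction for MYC. All 5 WT-MYC peaks were 496 bp wide, as were 97.9% of that list, and the WBM-MYC peak was 456 bp wide, as were 99.3%. The overlaps given for MYC peaks depend on these near-constant widths and do not measure the extent of binding. The 9 WDR5 peaks ranged from 229 bp at KMT2A to 779 bp at ASH2L, with a list median of 419 bp. Where WT-MYC and WDR5 peaks overlapped at the loci, their centres were between 22.0 and 361.5 bp apart, both extremes at RBBP5. Of the 15 peaks, those that contained the gene start numbered 1 at WDR5, 1 at RBBP5, 2 at ASH2L, 2 at DPY30, 3 at KMT2A and none at MEN1.

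In the wider surroundings, WDR5 peaks were above the chromosome mean around every gene but WDR5, by little at RBBP5 and DPY30. These means cover whole chromosomes and not the surroundings of gene starts, so the excess cannot be read as particular to these genes. All counts here include the peaks within 3 kb of each start. Within 1 Mb either side, WDR5 peaks numbered 19 at RBBP5, 38 at ASH2L, 11 at DPY30 and 42 at KMT2A, where the chromosome means gave 15.0, 7.68, 9.52 and 13.4. WT-MYC peaks numbered 4, 3, 4 and 4 around the same genes, and 5 around MEN1, where the means gave 2.89, 0.889, 1.15, 1.15 and 1.15. Apart from the WDR5 gene, nearly all of these had a WDR5 peak within 3 kb, with 1 of the 4 around KMT2A as the exception. Most WT-MYC peaks of the whole list did too (87.2%). WBM-MYC had no peak within 1 Mb of RBBP5, ASH2L or DPY30, and 1 each around KMT2A and MEN1. That around KMT2A was the peak across its start. Such counts for WBM-MYC are small by the length of its list, with between 0.231 and 0.891 at the means of the chromosomes that hold these 5 genes.

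**Figure D4:**
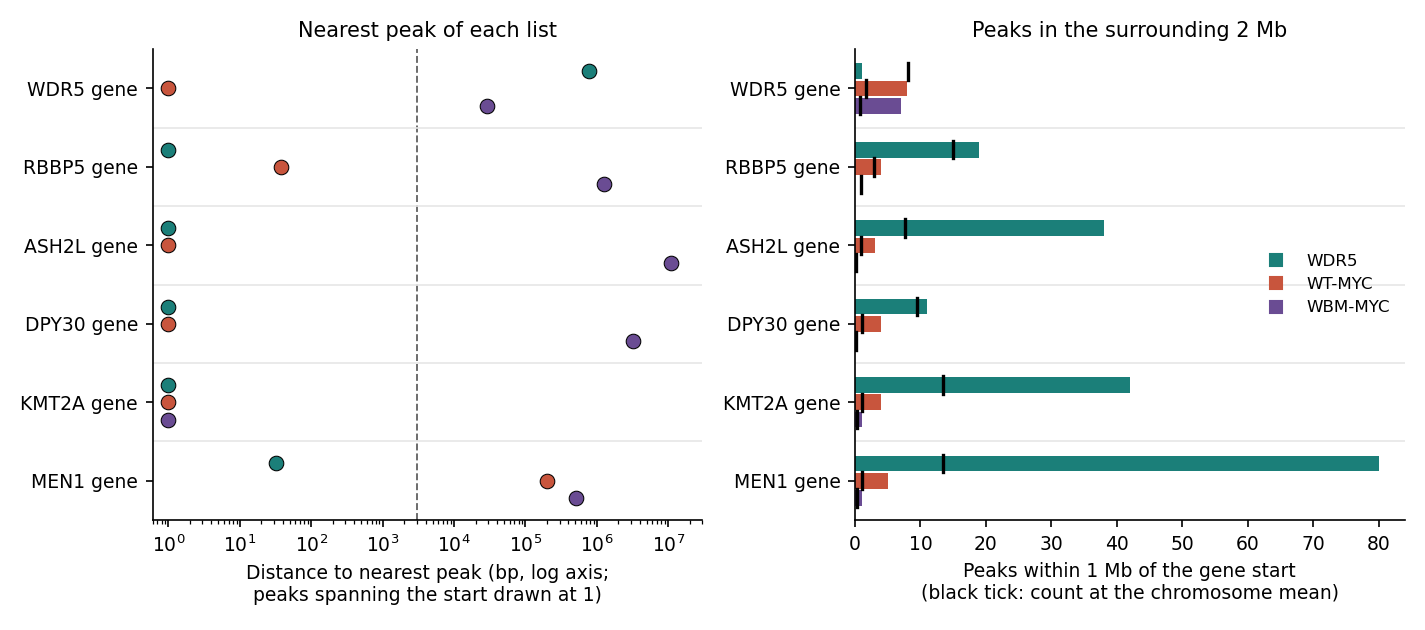
Left, distance in bp from each gene start to the nearest peak of each list on a log axis, with peaks that span the start drawn at 1 and the dashed line at 3 kb. Right, number of peaks of each list within 1 Mb of the start, those within 3 kb included, with black ticks for the number at the mean density of the chromosome. The WDR5 gene has 1 WDR5 peak and 8 WT-MYC peaks in its surroundings, and MEN1 has 80 WDR5 peaks.

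The next WT-MYC peak beyond the 3 kb was itself on a WDR5 peak for 5 of the 6 genes, near the 82.9% of all WT-MYC peaks that overlap one. The exception was the WDR5 gene, 143 kb from its next WT-MYC peak (line 1102). For DPY30 it was 23.7 kb away at 32288552 to 32289047 (line 2077), over a WDR5 peak at 32288654 to 32288932. For ASH2L it was 70.8 kb away at 38033816 to 38034311 (line 1719), over a WDR5 peak at 38033827 to 38034169. For RBBP5 it was 89.4 kb away at 205180562 to 205181057 (line 1678), over a WDR5 peak at 205180420 to 205181023. For MEN1 and KMT2A it was 203 and 354 kb away, at lines 1577 and 575. The peaks next to DPY30, ASH2L and RBBP5 lay on the higher-coordinate side, where the order of coding genes in the GRCh38.p14 gene table puts SPAST next to DPY30, STAR next to ASH2L and DSTYK next to RBBP5. These peaks were not assigned to a gene, since gene order on GRCh38.p14 does not show which gene lies at an hg19 peak.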

How the data were processed

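The authors deposited 1 peak list each for WT-MYC, WBM-MYC and WDR5, with chromosome, start and end and no header or score. Reads were on build hg19, and Bowtie 0.12.7 (an aligner) and CASAVA 1.8.2 were among the tools, per the submitters' processing notes. How peaks were called, at which threshold, against which control and on single or pooled replicates is not given in the sources used here. Sites missing from a list may have been bound below its threshold, and depth is unknown.

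The members and the list of other complex genes were chosen with earlier results of these data known, and all 6 members are named. Positions are 1-based. Distance runs from the gene start to the nearest edge of a peak. Backgrounds are shares of all peaks with a peak of another list within 3 kb, with exact 95% intervals that cover counting over peaks only, while neighbouring peaks are not independent. Chromosome means divide the peaks by the last peak's end. Strands and promoters come from RefSeq tables on GRCh38.p14, which gave no coordinates for peaks. GGGCGG was added as a motif after the data were seen. Python 3.11.15, numpy 2.4.6 and scipy 1.17.1 were used, and the distance code was tested on simulated data.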

Additional observations from a re-analysis of the deposited data

How the results depend on the processing

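Windows of 1, 5 and 10 kb, distances to peak centres and merging of overlapping peaks left the genes called for each list as they were. With the first 50% of each list, 3 genes had WT-MYC (WDR5, ASH2L and KMT2A) and 2 had both WT-MYC and WDR5 (ASH2L and KMT2A), since the WT-MYC peaks of RBBP5 and DPY30 come later. Without the WDR5 peak of MEN1, which also comes later, 4 genes had WDR5. Of the background shares, that of WT-MYC peaks with WBM-MYC stayed between 20.7 and 23.0%, and the others left their intervals under some settings. WDR5 peaks with WT-MYC made up 13.6% with at least 1 bp in common, 16.0% with gaps of up to 1 kb, 19.5% with gaps of up to 10 kb and 12.4% with the first 50% of each list. WDR5 peaks with WBM-MYC made up 3.40% with 1 bp in common, 4.94% at 10 kb and 3.12% with the first 50%. WT-MYC peaks with WDR5 made up 82.9% with 1 bp in common and 76.5% with the first 50%, where fewer WDR5 peaks remain to be met. No paired analysis was possible because each group has 1 list for its 3 replicates. For the same reason no replicate could be left out.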
